A study of Homo sapiens with 24 samples.

Results

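Lysyl oxidases are secreted, copper-dependent amine oxidases that convert lysine residues of collagen and elastin into reactive aldehydes, from which the cross-links of the extracellular matrix form. The family has 5 genes, *LOX*, *LOXL1*, *LOXL2*, *LOXL3* and *LOXL4*, and all 5 were taken. Their probes were found by looking up the accession of every non-control probe, which gave 6 of 58201 probes and 5 of 22439 named genes. LOX and LOXL1 are made as proenzymes with a long propeptide that is removed outside the cell, and they act mainly on fibrillar collagen and elastin. LOXL2, LOXL3 and LOXL4 carry scavenger receptor domains in front of the catalytic domain, and LOXL2 is known for its action on basement membrane collagen. In the liver the family is known from fibrosis, in which transforming growth factor beta (TGFβ) drives matrix deposition, and *LOX*, *LOXL2* and *LOXL4* are also known as genes that low oxygen can induce.

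Gene expression was measured on 24 one-colour microarrays in PLC/PRF/5 and SNU-449, established lines from human hepatocellular carcinoma (HCC). Each line was starved of serum overnight and then kept for 16 h as untreated control cells, with TGFβ1 at 1 ng/mL, with galunisertib (LY2157299, an inhibitor of the kinase of TGFβ receptor type 1) at 10 µM, or with both, in 3 independent cultures per group. All groups, controls included, were serum-starved, and each line stands for 1 tumor, so cultures of a line do not sample different tumors. The 3 replicate numbers are also the 3 slides of 8 arrays, and each group took the same place on every slide, with the TGFβ-treated arrays in the second row, so that place and treatment cannot be told apart. Comparisons within a line share groups, such as the control cultures, and are not independent of each other.

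The array carried 10 spots of the *LOX* probe and 10 of the *LOXL2* probe, 1 spot each for *LOXL1* and *LOXL4*, and 2 single-spot probes for *LOXL3*. Levels are given as log2 of the signal over the 75th percentile of the array, so that 0 is the signal of a bright probe and each unit is a doubling. The floor lay at 5.70% of the 75th percentile, which is -4.13 on this scale, and values at the floor have no order. Since each probe binds with its own strength, levels are compared between groups for 1 probe and never between genes. A level is an average over all cells of a culture, so fewer expressing cells and less RNA per cell cannot be told apart. The 75th percentile lay between 145 and 262 intensity units, between 43.8% and 51.4% of the spots were well above background, and no spot was saturated. All 12 arrays of PLC/PRF/5 had each of 8 hepatocyte markers above background, whereas in SNU-449 *APOB*, *TF* and *AHSG* were above it on none of the 12 and *ALB*, the albumin gene, on 2. The other 4 were above it on all 12 SNU-449 arrays, and of these *FGB*, a fibrinogen gene, had a higher control mean in SNU-449 (4.07) than in PLC/PRF/5 (1.78). Of 5 markers of fibroblasts and stellate cells, *PDGFRB*, *COL3A1* and *ACTA2* were above background on all 12 SNU-449 arrays, with control means of -1.30, -2.01 and -2.48, and *PDGFRB* was also above it on all 12 of PLC/PRF/5, with a control mean of 0.72. *DCN* and *LUM* were above background on no array of either line.

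The proximal promoters of *LOX* and *LOXL4*, the members that responded to TGFβ most, are shown as the 250 bases before the annotated start (RefSeq, GRCh38.p14, minus strand for both, chr5:122078260-122078509 and chr10:98268195-98268444). Capitals mark every match, on either strand, to the letters searched. CAGAC is the core that SMAD proteins bind, and TGANTCA is a site of the AP-1 factors. The core of the hypoxia response element was searched as ACGTG and, in its other form, as GCGTG. The GC box that Sp proteins bind was searched as GGGCGG, and the TATA box was searched as TATAAA.
LOX: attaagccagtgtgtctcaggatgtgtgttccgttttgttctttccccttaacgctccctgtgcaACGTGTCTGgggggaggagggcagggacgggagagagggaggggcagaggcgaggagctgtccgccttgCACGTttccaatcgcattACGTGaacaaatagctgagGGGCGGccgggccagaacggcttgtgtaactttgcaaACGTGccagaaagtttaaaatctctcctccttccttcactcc
LOXL4: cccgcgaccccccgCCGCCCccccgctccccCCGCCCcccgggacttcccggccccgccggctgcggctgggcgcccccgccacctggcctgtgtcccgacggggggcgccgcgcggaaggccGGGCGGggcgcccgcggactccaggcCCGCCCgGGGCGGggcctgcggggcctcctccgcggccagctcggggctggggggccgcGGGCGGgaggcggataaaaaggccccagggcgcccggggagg

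In the *LOX* window, ACGTG matched 4 times, GGGCGG 1 time and CAGAC 1 time, as its complement GTCTG, which shares its first base with the end of an ACGTG match. The *LOXL4* window, with a GC content of 86.4% against 55.2% for *LOX*, held 6 GC boxes and none of the other motifs. For comparison, 35114 windows of the same length were searched, of which a gene with several annotated starts can have several. Of these, the SMAD core was in 38%, the AP-1 site in 6.57%, the hypoxia core in 18.5% in its first form and 32.2% in its second, the GC box in 42.6% and the TATA box in 10.7%. The window of *LOXL1* held 1 CAGAC and no other motif searched, and that of *LOXL3* held none. *LOX* has 3 annotated starts and *LOXL3* has 2, and the window of the most upstream one was read. No window was available for *LOXL2*. These matches describe the letters only.

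The untreated lines differed in the transcript levels of the lysyl oxidase genes. SNU-449 had *LOXL2* far above PLC/PRF/5 and was the line in which *LOX* and *LOXL1* were measured, whereas *LOXL4* was higher in PLC/PRF/5. The control arrays of SNU-449 had *LOXL2* at 5.96, 5.96 and 6.03, those of PLC/PRF/5 at -2.27, -2.11 and -1.88. The lines were apart by 8.07 on the log2 scale (standard error 0.10, limma over 24 arrays, adjusted p = 8.80e-23), a 269-fold higher signal in SNU-449. *LOXL4* was lower on each SNU-449 control array (1.91, 2.44 and 2.15) than on any of PLC/PRF/5 (4.84, 4.59 and 4.84). The difference of -2.59 (standard error 0.12, limma adjusted p = 2.78e-13) corresponds to a 6.03-fold lower signal in SNU-449.

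*LOX* reached -0.23, -0.26 and -0.14 on the SNU-449 control arrays, and *LOXL1* reached 1.52, 1.86 and 1.70. On the 12 PLC/PRF/5 arrays neither gene was well above background on any, under any treatment. Only a lower bound can therefore be given, for which each PLC/PRF/5 array counted with its weakest detected signal, or with the signal of the probe where that was larger. By this bound SNU-449 exceeded PLC/PRF/5 at least 13.6-fold in *LOX* and at least 50.9-fold in *LOXL1*. No p is given for these genes, which entered the test through SNU-449 and had no spread at the floor in PLC/PRF/5. *LOXL3*, read from a spot in row 380 of 384, lay near the floor in both lines, at -2.80, -3.34 and -2.91 in control PLC/PRF/5 cells and at -3.70, -3.56 and the floor in those of SNU-449. Its difference of -0.78 (standard error 0.17, limma adjusted p = 5.45e-04) rested on 2 of 3 SNU-449 arrays above background and was lost with 5 of 14 alternatives of processing. The second *LOXL3* probe was above background on 1 of the 24 arrays and gave no level. The 3 genes with a measured difference, *LOXL2*, *LOXL3* and *LOXL4*, were called at an adjusted p below 0.05 in this comparison, in which 65.4% of the probes tested were.

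**Figure D1:**
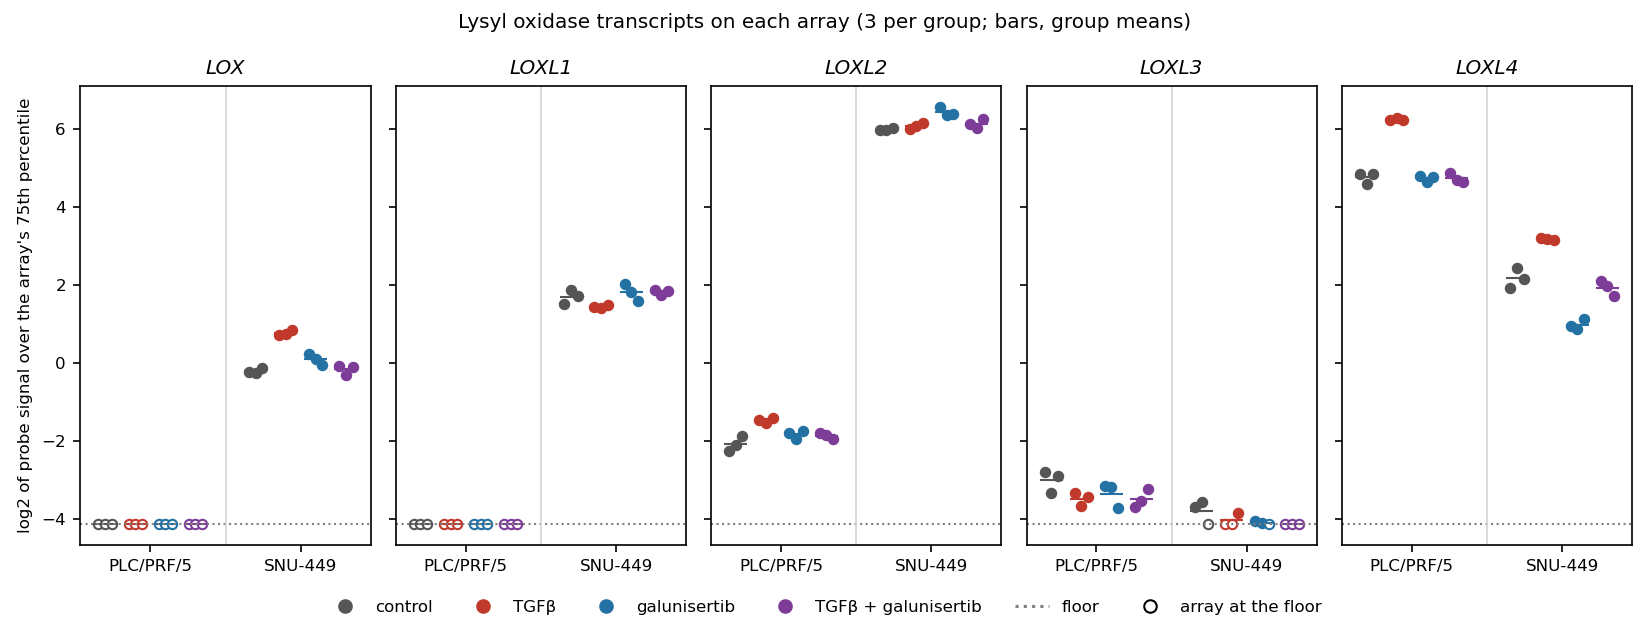
Level of each lysyl oxidase gene on every array, as log2 of the probe signal over the 75th percentile of the array, for the 4 treatments of PLC/PRF/5 and SNU-449. Points are arrays, 3 per group, bars are group means, and open points lie at the floor of -4.13. *LOX* and *LOXL1* lie at the floor on all 12 PLC/PRF/5 arrays, and *LOXL4* is highest with TGFβ in both lines.

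In SNU-449, TGFβ raised *LOX* and *LOXL4* to about 2-fold, and galunisertib lowered both genes in TGFβ-treated cells. The 2 genes parted in cells given galunisertib without TGFβ, where *LOXL4* fell below its control level and *LOX* did not. *LOX* was at 0.72, 0.75 and 0.83 with TGFβ, against the control values of -0.23, -0.26 and -0.14. Every TGFβ array thus lay above every control array, with group means of 0.76 ± 0.06 and -0.21 ± 0.06 (SD, n = 3). The difference was 0.97 (standard error 0.10, 95% interval 0.74 to 1.20, limma over the 12 SNU-449 arrays, adjusted p = 3.16e-04), a 1.96-fold rise. Within the slides it was 0.94, 1.00 and 0.97. *LOXL4* was at 3.21, 3.16 and 3.14 with TGFβ, against 1.91, 2.44 and 2.15 in control cells. The 3 TGFβ arrays were closer together than the controls, with SDs of 0.03 and 0.26, and did not overlap with them. The rise was 1.01 (standard error 0.15, 95% interval 0.68 to 1.33, limma adjusted p = 0.00211), or 2.01-fold, and 1.30, 0.73 and 0.99 within the slides. Leaving out slide 1 or slide 3 took the adjusted p of *LOXL4* to 0.0507 and 0.0597, with rises of 0.86 and 1.02.

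*LOXL1* was at 1.44, 1.41 and 1.48 with TGFβ and at 1.52, 1.86 and 1.70 in control cells. These groups did not overlap, but the difference of -0.25 (95% interval -0.53 to 0.03) did not pass the test (limma adjusted p = 0.276). *LOXL2* was at 6.0, 6.08 and 6.14 with TGFβ, which overlapped with its controls, and the difference of 0.09 had a 95% interval from -0.13 to 0.30 (limma adjusted p = 0.667). *LOXL3* was above background on 1 of 3 TGFβ arrays and was not tested in this line. Of the 4 members tested in SNU-449, 2 were called, where 8.22% of all probes tested were.

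With galunisertib alone, *LOXL4* was at 0.95, 0.87 and 1.12 in SNU-449, below each of its control arrays and the lowest of its 4 groups. It fell by 1.19 on the log2 scale against control cells (standard error 0.15, 95% interval -1.51 to -0.86, limma adjusted p = 0.00183), a 2.28-fold lower signal. A plain test of group means, without spread shared between genes, is not the study's own and called 44 of all 25778 probes here. It gave an adjusted p of 0.110 for this *LOXL4* difference, and without slide 2 or slide 3 limma gave 0.0704 and 0.0604. *LOX* was at 0.23, 0.11 and -0.06, above its controls on all 3 arrays, with a difference of 0.30 that did not pass the test (95% interval 0.07 to 0.53, limma adjusted p = 0.130) but did with all 24 arrays in 1 fit (limma adjusted p = 0.0149). *LOXL2* was at 6.57, 6.35 and 6.39, above each of its controls. Its difference of 0.45 (standard error 0.10, limma adjusted p = 0.0287), a 1.37-fold rise, was lost when any 1 of 5 of the 6 arrays compared was left out, with adjusted p-values up to 0.0821. *LOXL1* ranged from 1.59 to 2.02 and overlapped with its controls (difference 0.12, limma adjusted p = 0.633). The 2 members called stand beside 4.63% of all probes.

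When galunisertib was added to TGFβ, *LOX* came to -0.09, -0.32 and -0.10 in SNU-449, on the level of the control arrays, with which it overlapped. It fell by 0.93 against TGFβ alone (standard error 0.10, 95% interval -1.16 to -0.70, limma adjusted p = 2.46e-04), and by 0.80, 1.06 and 0.93 within the slides. *LOXL4* came to 2.10, 1.97 and 1.71, also within or just under the range of its controls. It fell by 1.25 against TGFβ alone (standard error 0.15, 95% interval -1.57 to -0.92, limma adjusted p = 3.40e-04), a 2.37-fold lower signal. *LOXL1* was at 1.86, 1.75 and 1.84, above each array with TGFβ alone, by 0.42, 0.33 and 0.36 within the slides. The mean difference of *LOXL1*, 0.37 (95% interval 0.09 to 0.65), missed the threshold with limma (adjusted p = 0.0748) and passed it under 4 other settings, with adjusted p-values from 0.00631 to 0.0495. *LOXL2* was at 6.14, 6.02 and 6.26 and overlapped with TGFβ alone (difference 0.07, limma adjusted p = 0.729). The 2 members called, *LOX* and *LOXL4*, stand beside 15.1% of all probes.

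**Figure D2:**
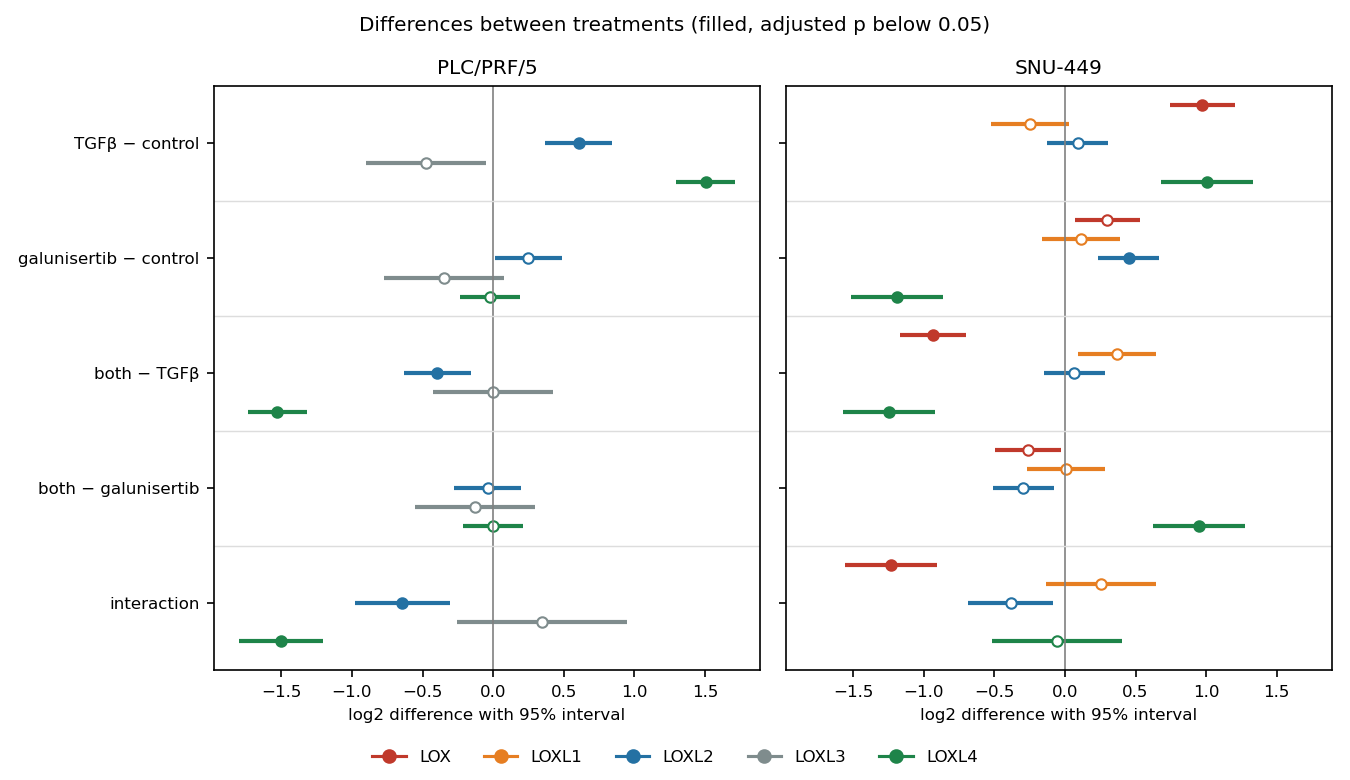
Differences between treatments within PLC/PRF/5 and SNU-449 on the log2 scale, with 95% intervals from limma, for the members tested in each line. Filled points have an adjusted p below 0.05, and the interaction is the TGFβ difference with galunisertib minus that without it. In SNU-449 the interaction was -1.23 for *LOX* and -0.06 for *LOXL4*, whereas in PLC/PRF/5 it was -1.50 for *LOXL4*.

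A TGFβ response of *LOXL4* was still measured under the inhibitor in SNU-449, and none was called for *LOX*. Against galunisertib alone, TGFβ with galunisertib raised *LOXL4* by 0.95 (standard error 0.15, 95% interval 0.62 to 1.27, limma adjusted p = 0.0131), and by 1.15, 1.10 and 0.59 within the slides. The call was lost when any 1 slide was left out, with limma adjusted p-values from 0.0843 to 0.166 and rises from 0.85 to 1.13. The plain test without shared spread called 0 of all 25778 probes here. The same comparison gave -0.26 for *LOX* (limma adjusted p = 0.270), -0.30 for *LOXL2* (limma adjusted p = 0.181) and 0.01 for *LOXL1* (limma adjusted p = 0.993). So 1 member was called, where 1.55% of all probes were. Whether the TGFβ difference itself changed with the inhibitor was tested as an interaction. For *LOX* it was -1.23 (standard error 0.15, 95% interval -1.56 to -0.91, limma adjusted p = 0.00252), the difference having gone from 0.97 to -0.26. That call was lost without any 1 slide, with adjusted p-values from 0.0760 to 0.147 and values from -1.35 to -1.13. For *LOXL4* the interaction was -0.06, with a 95% interval from -0.52 to 0.40 (limma adjusted p = 0.917). For *LOXL2* it was -0.39 (limma adjusted p = 0.206) and for *LOXL1* 0.25 (limma adjusted p = 0.498). The 1 member called stands beside 1.68% of all probes.

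*LOX* and *LOXL2* were read from up to 10 spots per array. On the SNU-449 arrays the SD between the *LOX* spots of 1 array was 0.04 to 0.21 on the log2 scale, with a median of 0.09. For *LOXL2*, of which some spots lie in the outermost columns of the array, it was 0.03 to 0.41, with a median of 0.10. The widest spread of *LOXL2* lay on the third galunisertib array, where the lowest spot stood at 5.39 and the highest at 6.71. Spots are repeats on 1 array and were averaged, so their spread is not that between cultures and they do not count as replicates.

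**Figure D3:**
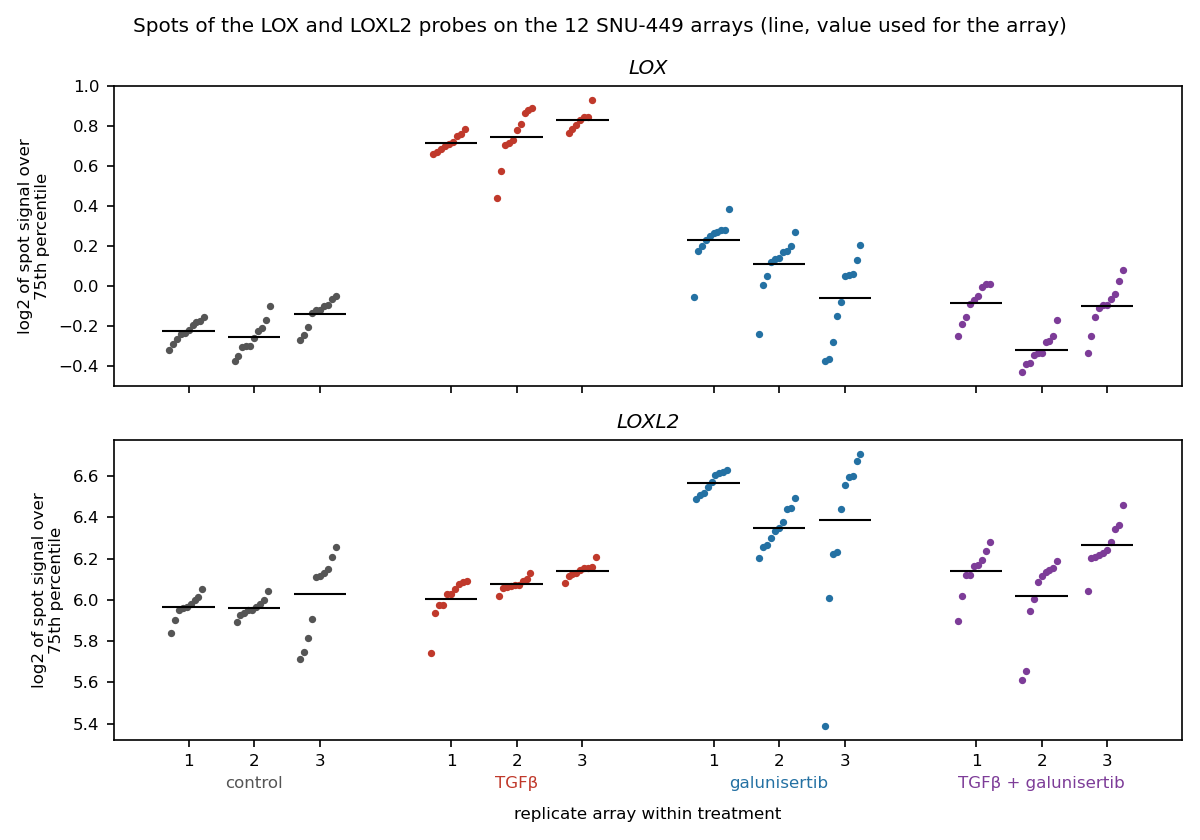
Single spots of the *LOX* and *LOXL2* probes on the 12 SNU-449 arrays, as log2 of the spot signal over the 75th percentile, after spots marked as outliers were left out. Points are spots, the black line is the value used for the array, and numbers are the replicates of each treatment. The *LOX* values of the 3 TGFβ arrays, from 0.72 to 0.83, lie above those of the other 9 arrays.

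PLC/PRF/5 cells raised *LOXL4* more than 2-fold with TGFβ, and galunisertib brought it back to the control level. *LOXL4* was at 6.24, 6.29 and 6.24 with TGFβ, against 4.84, 4.59 and 4.84 in control cells. The groups were far apart, with means of 6.26 ± 0.03 and 4.76 ± 0.15 (SD, n = 3). The rise was 1.50 (standard error 0.10, 95% interval 1.29 to 1.71, limma over the 12 PLC/PRF/5 arrays, adjusted p = 1.18e-05), or 2.84-fold, and *LOXL4* ranked 25th by p among 27044 probes tested. *LOXL2* was at -1.48, -1.56 and -1.41 with TGFβ, against -2.27, -2.11 and -1.88 in control cells. Its rise of 0.60 (standard error 0.11, 95% interval 0.37 to 0.84, limma adjusted p = 0.00584), 1.52-fold, was lost under 5 of 17 alternatives of processing. *LOXL3* was at -3.35, -3.68 and -3.44 with TGFβ, close to the floor, and its difference of -0.47 did not pass the test (limma adjusted p = 0.155). Of the 3 members tested in PLC/PRF/5, 2 were called, where 10.5% of all probes were.

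Galunisertib alone left *LOXL4* of PLC/PRF/5 at 4.79, 4.64 and 4.76, within the range of its controls. The difference was -0.02, with a 95% interval from -0.24 to 0.19 (limma adjusted p = 0.920). *LOXL2* was at -1.81, -1.95 and -1.75, which overlapped with its controls, and the difference of 0.25 had an unadjusted p of 0.0411 (limma adjusted p = 0.230). *LOXL3* was at -3.16, -3.20 and -3.74 (difference -0.35, limma adjusted p = 0.350). With limma 0 members were called, *LOXL2* alone had an unadjusted p below 0.05, and limma called 2.91% of all probes. The plain test without shared spread also called 0 members, and 90 of all 27044 probes.

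With both agents *LOXL4* of PLC/PRF/5 was at 4.87, 4.70 and 4.63, on the level of the control and galunisertib arrays. It fell by 1.53 against TGFβ alone (standard error 0.10, 95% interval -1.74 to -1.32, limma adjusted p = 3.92e-06), a 2.88-fold lower signal, and by 1.37, 1.59 and 1.62 within the slides. *LOXL2* was at -1.81, -1.85 and -1.97 and fell by 0.39 against TGFβ alone (standard error 0.11, limma adjusted p = 0.0168), a call that leaving out any 1 of 3 of the 6 arrays ended. *LOXL3* did not differ beyond its spread (difference 0.00, 95% interval -0.43 to 0.42, limma adjusted p = 0.991). The 2 members called stand beside 33.4% of all probes. Against galunisertib alone, TGFβ with galunisertib gave 0.00 for *LOXL4* (95% interval -0.21 to 0.21), -0.04 for *LOXL2* and -0.13 for *LOXL3*, with limma adjusted p-values of 1, 0.848 and 0.702. Here limma called 0 members and 6.45% of all probes, and 0 members had an unadjusted p below 0.05. The plain test without shared spread called 0 of all 27044 probes. The interaction was -1.50 for *LOXL4* (standard error 0.14, 95% interval -1.80 to -1.20, limma adjusted p = 4.42e-04) and -0.64 for *LOXL2* (standard error 0.15, limma adjusted p = 0.0364), beside 5.65% of all probes. Without slide 2 or slide 3 the adjusted p of the *LOXL4* interaction was 0.0508 and 0.0832. That of *LOXL2* passed the threshold by little, as 10 of 12 arrays left out singly and the replicate block (adjusted p = 0.0531) ended it.

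**Figure D4:**
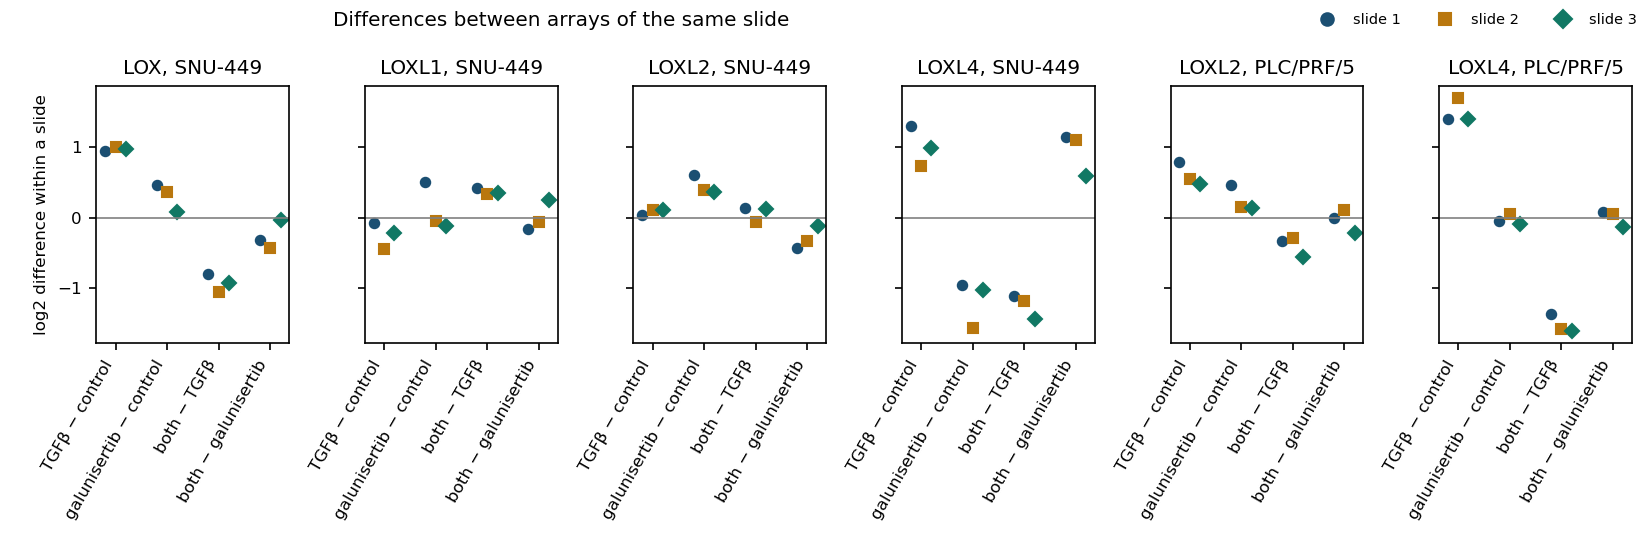
Differences between 2 treatments on the same slide, on the log2 scale, for the members measured in SNU-449 and PLC/PRF/5, without *LOXL3*. Each symbol is 1 of the 3 slides. The TGFβ difference of *LOXL4* is above 0 on all 3 slides in both lines, and that with galunisertib alone is below 0 on all 3 slides in SNU-449 and on both sides of 0 in PLC/PRF/5.

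The lines were then compared in how their lysyl oxidase transcripts responded. Galunisertib alone moved *LOXL4* by -1.19 in SNU-449 cells but by -0.02 in the other line, and these differed by -1.16 (standard error 0.17, 95% interval -1.53 to -0.80, limma over 24 arrays, adjusted p = 4.34e-04). This was the 1 member called for that difference, where 4.46% of all probes were, and without slide 2 its adjusted p was 0.0550, with a value of -0.93. For the TGFβ rise of *LOXL4*, 1.01 in SNU-449 against 1.50 in PLC/PRF/5, the gap of -0.50 did not pass the test (95% interval -0.86 to -0.13, limma adjusted p = 0.101), though it did under 2 other scalings and without the first SNU-449 control array. *LOXL2* differed by 0.09 with TGFβ in SNU-449 against 0.60 in PLC/PRF/5, a gap of -0.52 (standard error 0.14, 95% interval -0.81 to -0.22, limma adjusted p = 0.0288) that 7 of 12 arrays left out singly ended. So 1 member with a response measured in both lines was called, beside 6.91% of all probes. *LOX* lay at the floor on all PLC/PRF/5 arrays, so its response there could not be measured, and its value in this fit, 0.97, is its difference in SNU-449 alone.

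In order of their means in SNU-449, *LOX* ran from control and TGFβ with galunisertib, which overlapped, to galunisertib and then TGFβ, each without overlap with the one before. *LOXL4* ran from galunisertib to TGFβ with galunisertib and control, which overlapped, and then TGFβ, which did not. The lowest group of *LOXL1* was TGFβ, and the other 3 groups overlapped in turn. *LOXL2* had its highest group with galunisertib, apart from the other 3, which overlapped. In PLC/PRF/5 the TGFβ group was the highest for *LOXL2* and *LOXL4*, without overlap with the next, and all other neighbours overlapped, as did those of *LOXL3*.

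The genes that carried these treatments' usual response were read beside the members. Of the TGFβ target genes *SMAD7*, *SKIL*, *PMEPA1* and *CCN2*, 3 of 4 rose with TGFβ in SNU-449, led by *CCN2*, which encodes a matricellular growth factor, with 1.53 (limma adjusted p = 6.21e-05), while *SKIL* differed by 0.93 (limma adjusted p = 0.0958). With galunisertib alone these 4 fell in SNU-449, from -3.50 for *PMEPA1* to -1.20 for *CCN2*, where the median over all probes tested was 0.06. In PLC/PRF/5 all 4 were tested, of which *SKIL*, *SMAD7* and *PMEPA1* rose with TGFβ and *CCN2* fell, and of the 4 *SKIL* fell with galunisertib alone (-0.63, limma adjusted p = 0.0158). Under the inhibitor, TGFβ still raised 3 of the 4 genes in SNU-449, *SMAD7* by 1.38, *SKIL* by 2.08 and *PMEPA1* by 2.77, and 0 of 4 in PLC/PRF/5 with limma. *LOXL4* of SNU-449 was called in the direction of these genes in each SNU-449 comparison named, whereas *LOX* was not called with galunisertib alone or with TGFβ under it in the fit over the 12 SNU-449 arrays.

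Partners of the enzymes were taken from lists chosen for their role. The TGFβ counts of these and the later lists stand beside 8.22% of all probes called by limma in SNU-449 and 10.5% in PLC/PRF/5. For galunisertib alone these shares were 4.63% and 2.91%. Among 7 genes tested for processing of the proenzymes and the matrix scaffold, 3 rose with TGFβ in SNU-449 and 0 fell, with a median of 0.19 against 0.00 over all probes. *BMP1*, the protease that removes the propeptide of LOX, rose by 0.92 (standard error 0.10, limma adjusted p = 3.03e-04), had an interaction of -0.97 (limma adjusted p = 0.00668), and fell by 1.14 when galunisertib was added to TGFβ. *FN1*, fibronectin, with 0.91, was above background on 1 array only in one of these groups, and *FBLN1*, a fibulin, rose by 0.44. Of 9 substrate genes tested 4 rose and 0 fell, with a median of 0.65. These were *COL4A1* (1.45, standard error 0.13, limma adjusted p = 1.06e-04) and *COL4A2* (0.73), which encode basement membrane collagen, and *COL1A1* (0.92) and *COL1A2* (0.45), which encode fibrillar collagen. *COL1A1* was the 1 substrate gene of 9 that galunisertib alone lowered in SNU-449, by 2.61 (limma adjusted p = 5.32e-04). It was also the 1 of 9 that TGFβ still raised under galunisertib, by 1.63 (limma adjusted p = 0.0122), beside 1.55% of all probes called. PLC/PRF/5 had *COL5A2* as the 1 of 5 substrate genes tested to rise with TGFβ (0.40), and of 6 genes for processing and scaffold *PCOLCE2*, an enhancer of procollagen cleavage, fell by 0.56.

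Genes that modify or fold collagen in the cell were tested next. Of 10 in SNU-449, 0 rose and 1 fell with TGFβ, with a median of 0.25. When galunisertib was added to TGFβ 1 rose and 3 fell, beside 15.1% of all probes called. The 1 that fell with TGFβ was *SERPINH1*, a collagen chaperone, whose probe was above background on 1 array only in one of these groups. Of 10 tested in PLC/PRF/5, 1 rose, the lysyl hydroxylase gene *PLOD2*, by 0.42 (limma adjusted p = 0.0312). Of 6 genes of copper supply, limma called 0 with TGFβ or with galunisertib alone in either line. Between the untreated lines limma called all 6 lower in SNU-449, in a comparison where 65.4% of all probes were called in either direction. The differences were -3.76 for *ATP7B* and -2.21 for *ATP7A*, the copper-exporting ATPases, and -1.07 for the copper importer gene *SLC31A1*. The median was -0.99 against -0.13 over all probes. Scaling the arrays to their medians moved the median of all probes in this comparison by 0.33, more than the differences of *ATOX1* and *SLC31A2*, -0.32 and -0.26.

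Other amine oxidases outside the family were tested as well. In SNU-449, TGFβ raised *SMOX*, spermine oxidase, by 1.23 (limma adjusted p = 7.31e-05) and lowered *MAOA*, monoamine oxidase A, by 0.59 (limma adjusted p = 0.00396), of 4 genes tested. *SMOX* also rose with galunisertib alone, by 0.61, and its interaction was -1.57, so its values had the order of signs seen for *LOX*. With TGFβ in PLC/PRF/5, 0 of 5 were called by limma.

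Of the hypoxia-responsive genes, *ADM*, adrenomedullin, rose by 1.09 in PLC/PRF/5 (limma adjusted p = 3.33e-04) and fell by 0.66 in SNU-449 with TGFβ (limma adjusted p = 0.00227), and the test of this difference gave -1.75 (limma adjusted p = 2.48e-07). Of 7 genes tested in each line, 2 rose and 1 fell in PLC/PRF/5, with a median of -0.12, and 1 rose and 1 fell in SNU-449, with a median of 0.39. The test of the difference between the lines called 2 of these genes higher and 1 lower in SNU-449, beside 6.91% of all probes called. The median of the 7 genes was -0.01 against 0.04 over all probes. Of the factors and markers of epithelial-to-mesenchymal transition, 3 of 8 rose with TGFβ in SNU-449 and 2 fell, with *SNAI1* up by 3.40 (limma adjusted p = 3.78e-07) and *CDH1*, E-cadherin, down by -2.00. *SNAI1* had an interaction of -3.26 there. In PLC/PRF/5 only 5 of the 8 were tested. There *SNAI1* was down by 0.57, *CDH2*, N-cadherin, was up by 0.51, and the other 3 were not called by limma. Of 5 markers of fibroblasts and stellate cells, *PDGFRB* was the 1 tested in PLC/PRF/5, where it rose with TGFβ (0.68, limma adjusted p = 0.00736) beside *LOXL4* and *LOXL2*. The other 4 were above background on no PLC/PRF/5 array. PLC/PRF/5 is an established tumor line, and whether its cultures held any other cells was not tested. Of the hepatocyte markers of PLC/PRF/5, 3 of 8 fell with TGFβ, among them *ALB* by 0.94.

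Outside the family, the genes whose level followed a member most closely over the 12 arrays of a line were picked by Pearson's r among 12834 genes above background on all SNU-449 arrays and 13399 on all PLC/PRF/5 arrays. For *LOXL4* these were *LBH*, *GADD45B* and *RGS9* in SNU-449, with r of 0.99 each, and *MALT1*, *ADRA2C* and *CLEC16A* in PLC/PRF/5, also 0.99. For *LOX* they were *GNG4* (0.98), *TCEAL1* (0.97) and *EEPD1* (0.97). *LOXL2* was followed by *MRPS15* (0.96), *CYSTM1* and *EBI3* (0.95 each) in SNU-449 and by *ATF6* (0.98), *ADM* (0.96) and *SGPL1* (0.95) in PLC/PRF/5. *LOXL1* was followed by *EIF5A2* and *SCAMP1-AS1* (0.95 each) and *CREBRF* (0.94), and *LOXL3*, near the floor, by *ZNF254*, *LDHAL6A* and *OR8G1* at 0.84 to 0.85. The 12 points share the 4 treatments and the 3 slides, so these values describe the arrays only. Between members in SNU-449, r was 0.58 for *LOX* with *LOXL4* and -0.72 for *LOXL2* with *LOXL4*.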

How the data were processed

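The authors hybridised RNA of 24 cultures to one-colour Agilent SurePrint G3 arrays and deposited the output of Agilent Feature Extraction 10.7.3.1, whose processed signal is an intensity after background subtraction, not normalized between arrays. They also deposited a table of 30913 probes in log2 (r = 0.999 with the values used here, slope 1.00), each probe centred on its median, used as an alternative only.

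Control spots and spots marked as outliers (111 to 216 per array) were left out, spots of a probe averaged, divided by the 75th percentile of the array, floored and converted to log2. Probes were named through RefSeq accessions (31104 of 58201); probe coordinates were not used. Probes were tested if some group had them above background on all its arrays, using limma 3.58.1 in R 4.3.3 over the 12 arrays of a line, or over 24 between lines, with Benjamini-Hochberg adjustment over all probes tested. A gene was called at an adjusted p below 0.05 and represented by its brightest probe. The study's methods used a random variance t-test, and limma, which also shares the spread between genes, took its place. A plain t-test, which does not share the spread, was an alternative and is not the study's own test. The normexp alternative used the median signal of each spot, with an offset of 50. The fit within a line was tested on simulated log2 values, for TGFβ against control. The other steps and fits were not simulated. Precision is limited by having 3 arrays per group.

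By the correlation of deviations from group means, same-numbered samples were paired, each of 3 pairs above 0.1, where TGFβ was set against control, both in SNU-449 (0.16 to 0.19) and in PLC/PRF/5 (0.17 to 0.26), and for TGFβ with galunisertib against TGFβ in SNU-449 (0.11 to 0.25). The number is also the slide.

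Named genes are all 5 members, the TGFβ target genes of a list (1 of them is not reported here), and of each list the called genes with the largest differences, up to 3 each way. The members and lists were chosen with earlier results of these data known.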

Additional observations from a re-analysis of the deposited data

Results flagged for a closer look

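The galunisertib response of *LOXL4* and the TGFβ response of *LOXL2* were called as different between the lines, by a test of the difference itself. The galunisertib difference of *LOXL4* was the lower one in SNU-449, where it differed from that of PLC/PRF/5 by -1.16 on the log2 scale (95% interval -1.53 to -0.80, limma adjusted p = 4.34e-04). Without slide 2 this call was lost (limma adjusted p = 0.0550). The TGFβ difference of *LOXL2* was lower in SNU-449 by -0.52 (95% interval -0.81 to -0.22, limma adjusted p = 0.0288). That call was weak, as it was lost under 5 of 15 alternatives of processing, with 7 of 12 arrays left out singly, and without any 1 slide. *LOX* had a value of 0.97 in the same fit, but it lay at the floor on all 12 PLC/PRF/5 arrays, so its response there was not measured and no difference between the lines was shown. Groups of 3 arrays were not searched for single outlying arrays.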

How the results depend on the processing

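Each log2 difference was recomputed under up to 17 alternatives of processing, of which the median of the spots and the removal of spots within 10 rows or columns of the edge were chosen after seeing the data, and without single arrays or slides. Of 1353 such values, 1249 kept their direction and side of the threshold or stayed uncalled, 95 lost a call and 9 gained one. In 63 the sign turned, for values of at most 0.25 in size that were called neither way. The TGFβ calls, and those for galunisertib added to TGFβ, held for *LOX* in SNU-449 and *LOXL4* in both lines under each change of scaling, background and filter that was run. The number of called members (2 unless said otherwise) became 1 in SNU-449 for TGFβ and for its combination with galunisertib against TGFβ with a fold above 2 and an unadjusted P below 0.001, which *LOX* missed by its fold. For TGFβ in PLC/PRF/5 it became 1 with that rule, no scaling, median scaling, normexp or the plain t-test. For galunisertib added to TGFβ in PLC/PRF/5 it became 1 with that rule, no scaling, median scaling, normexp, quantile normalization or the authors' table. The interaction in PLC/PRF/5 had 1 with that rule, median scaling, normexp, quantile normalization, the authors' table, no filter or the replicate block, and 0 without scaling. Galunisertib alone in SNU-449 had 1 with the fold rule, no scaling or median scaling, 0 with the t-test and 3 with all 24 arrays in 1 fit, where *LOX* was added. TGFβ under galunisertib in SNU-449 went from 1 to 0 with the fold rule, median scaling or the t-test, which called 0 of all probes there, and the interaction in SNU-449 from 1 to 0 with median scaling. The TGFβ difference between lines, whose 2 include *LOX* at the floor in PLC/PRF/5, had 1 with no scaling, median scaling, normexp or the filter on all arrays, and 0 with the fold rule or the authors' table. The 5 calls between the untreated lines, *LOX* and *LOXL1* at the floor included, became 2 with the filter on all arrays, which leaves out genes at background in a line. Leaving out arrays or slides gave 1 to 2 calls for TGFβ in either line and for galunisertib added to TGFβ in PLC/PRF/5, 0 to 2 for galunisertib alone in SNU-449, for the interaction in PLC/PRF/5 and for the galunisertib difference between lines, 0 to 1 for TGFβ under galunisertib and the interaction in SNU-449, and 1 to 3 for the TGFβ difference between lines. The replicate block changed no other call. Over all probes, calls for TGFβ in SNU-449 went from 2118 to 551 with the fold rule, 944 with median scaling and 3882 with all 24 arrays in 1 fit, and in PLC/PRF/5 from 2848 to 287 with the fold rule. The largest shift of the median of all probes was 0.33 with median scaling and 0.25 with no scaling. The causes were not tested. Weak signals limit *LOXL3* in both lines and *LOX* and *LOXL1* in PLC/PRF/5.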
